A study of Mus musculus with 2 samples.

Results

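The collagen genes are the 44 of 32285 genes in the count tables whose symbol is Col, a number, the letter a and a number. They encode the alpha chains of the collagens, and they were chosen by symbol alone, with no measured value. The cells came from intestinal tumours of mice given AOM-DSS, that is azoxymethane, a carcinogen, and dextran sulfate sodium, a chemical that inflames the colon. The WT library comes from mice labelled Mtch2fl/fl, which carry floxed alleles of the mitochondrial gene Mtch2 and no Cre. The cKO library comes from mice labelled Mtch2fl/fl VilCre, in which Cre is driven by the Villin promoter of the intestinal epithelium, so fibroblasts, endothelium and immune cells lie outside the cells in which that promoter acts. The labels used here give no age. Tumours were pooled by genotype and dissociated with trypsin, and each genotype is 1 droplet library. Genotype, mice and library therefore cannot be told apart, no difference between WT and cKO could be tested, and every interval below is a 95% interval for counting error only.

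Collagen chains wind around each other into a triple helix, and the families differ in what that helix builds. Fibrillar chains form the fibres of connective tissue, type IV chains the sheet under epithelium and endothelium, type VI chains beaded filaments near both, and fibril-associated chains coat the fibres. Multiplexins sit beside basement membranes, and transmembrane collagens span the plasma membrane of the cell that makes them. In the gut wall, fibroblasts are the known main makers of fibrillar collagen, and tumour stroma is known for collagen deposition.

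Each unique molecular identifier (UMI) stands for 1 captured transcript, so levels are given as UMIs per 1000000 UMIs of a cell class in a library (CPM) and are not scaled by gene length. After filtering, 7245 WT and 4388 cKO cells held 25968 and 35736 collagen UMIs. Cells were clustered without the collagen genes and clusters were named from markers that hold no collagen, so the collagens had no part in naming the cells. The fibroblast-like class held 105 WT and 54 cKO cells, the endothelial-like class 51 and 53, and the epithelial-like class 3237 and 2102. A squamous-like class of 58 cells was found in cKO only. The fibroblast-like class had 9 of its 10 markers at 10 CPM or more in WT and 10 of 10 in cKO, and the endothelial-like class 10 of 10 in both. Clusters left unnamed held 38.8% of WT cells and 12.2% of cKO cells, most of them with few UMIs. The libraries shared 22 cell barcode sequences. The targeted gene, Mtch2, stood in epithelial-like cells at 93.6 CPM (91.6 to 95.5) for WT and 23.5 (22.4 to 24.7) for cKO, and in fibroblast-like cells at 65.4 CPM (48.2 to 86.7) and 59.6 CPM (43.1 to 80.2). In squamous-like cells of cKO it stood at 65.9 CPM (55.4 to 77.8). Neutrophil-like cells had less Mtch2 in cKO, 44.7 CPM (32.1 to 60.6) for WT and 19.8 (13.9 to 27.2) for cKO. Dendritic-like cells had 71.0 CPM (54.8 to 90.4) and 36.9 (27.2 to 48.9). In endothelial-like, macrophage-like, mast-like, T-like and B-like cells the Mtch2 intervals of the libraries overlapped. The sources used here do not say where its counted reads lie relative to the floxed stretch.

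The libraries stood apart in fibroblast-like clusters 23, the largest, and 32. The WT cells of cluster 23 had a median of 1975 UMIs against 9221 in cKO. In WT cluster 23 also held erythroid marker transcripts that summed to 21689 CPM, against 51.5 CPM in cKO. Of 10 epithelial markers it held 10 at 10 CPM or more in WT, summing to 7174 CPM, and 9 in cKO, summing to 689 CPM, with none at 0 in either. In cluster 32 erythroid markers summed to 8400.6 CPM for WT and 30.4 for cKO, and epithelial markers to 1953 and 963 CPM, with a median of 9702 UMIs per cell in WT and 4671 in cKO. Cluster 33 held 8.14 and 27.9 CPM of erythroid markers and 924 and 576 CPM of epithelial markers, WT first. For the sums, the lists and the main genes, ratios between the libraries in the fibroblast-like class are given with and without cluster 23, and the part of these other transcripts in the ratios was not tested.

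All 44 collagen genes had at least 1 UMI, and 30 reached 10 CPM in a named class of 50 or more cells in at least 1 library. Of these, 25 reached it in both libraries, and 23 were highest in the same class in both. The stretches upstream of the RefSeq start site are shown for 6 collagen genes with different leading classes or clusters: Col1a2 (chr6:4505370-4505492, plus strand) and Col3a1 (chr1:45311288-45311537, plus strand) for fibroblasts, Col4a5 (chrX:141475169-141475384, plus strand) for fibroblast-like cluster 32 and lymphatic endothelium, Col15a1 (chr4:47207762-47208011, plus strand) for blood endothelium, Col23a1 (chr11:51289670-51289919, plus strand) for lymphatic endothelium and Col17a1 (chr19:47692095-47692292, minus strand) for squamous-like cells. They come from RefSeq on GRCm38.p6, in which 35 of the 44 genes were matched by symbol, and run 5′ to 3′ on the strand of the gene, without annotated exons. For Col1a2 the RefSeq start site lies 804 bases inside the gene as GENCODE annotates it, so its stretch is upstream of the RefSeq start only. The RefSeq start of Col15a1 lies 149 bases before the GENCODE gene, and those of the other 4 lie at most 52 bases inside it. Capitals mark matches, on either strand, to the letters TATAAA, called the TATA box, to the letters of the CCAAT box, or to GGGCGG, called the GC box.
Col1a2: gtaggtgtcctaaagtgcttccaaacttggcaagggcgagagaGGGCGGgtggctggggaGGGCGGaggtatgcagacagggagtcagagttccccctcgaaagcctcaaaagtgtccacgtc
Col3a1: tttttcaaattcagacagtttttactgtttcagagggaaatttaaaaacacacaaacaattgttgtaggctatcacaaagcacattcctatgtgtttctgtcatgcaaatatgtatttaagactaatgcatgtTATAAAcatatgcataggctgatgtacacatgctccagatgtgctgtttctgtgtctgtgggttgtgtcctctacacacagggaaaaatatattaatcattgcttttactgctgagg
Col4a5: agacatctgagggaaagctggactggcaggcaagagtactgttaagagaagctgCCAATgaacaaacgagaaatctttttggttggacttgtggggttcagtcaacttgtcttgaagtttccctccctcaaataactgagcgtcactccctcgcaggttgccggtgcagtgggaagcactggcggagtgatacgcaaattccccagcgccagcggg
Col15a1: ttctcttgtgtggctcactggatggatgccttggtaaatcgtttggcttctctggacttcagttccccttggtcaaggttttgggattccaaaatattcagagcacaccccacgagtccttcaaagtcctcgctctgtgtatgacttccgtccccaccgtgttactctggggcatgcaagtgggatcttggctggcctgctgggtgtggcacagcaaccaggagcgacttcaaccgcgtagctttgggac
Col23a1: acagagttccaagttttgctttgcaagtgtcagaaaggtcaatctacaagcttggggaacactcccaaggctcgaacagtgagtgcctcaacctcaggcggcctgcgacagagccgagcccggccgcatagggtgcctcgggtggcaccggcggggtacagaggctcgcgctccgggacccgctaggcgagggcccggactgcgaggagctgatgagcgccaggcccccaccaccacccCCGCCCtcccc
Col17a1: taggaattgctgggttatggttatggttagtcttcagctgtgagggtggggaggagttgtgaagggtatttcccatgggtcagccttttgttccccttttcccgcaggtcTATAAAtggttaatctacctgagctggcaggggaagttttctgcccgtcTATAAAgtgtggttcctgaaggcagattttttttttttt
The Col1a2 stretch holds 2 GC boxes, Col3a1 1 TATA box, Col4a5 1 CCAAT box, Col23a1 1 GC box on the other strand, Col17a1 2 TATA boxes and Col15a1 none of these. Over all 32851 promoter windows of 250 bases, 12.4% hold a TATA box, 33.8% a CCAAT box and 32.7% a GC box. Over the 38 such windows of collagen genes the shares are 13.2%, 34.2% and 57.9%. These windows keep annotated exons, while the stretches of Col1a2, Col4a5 and Col17a1 are cut to 123, 216 and 198 bases, so the shares are not for like lengths. These matches describe letters and no factor's binding.

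Fibroblast-like cells held the most collagen transcripts per cell class in both libraries. Summed over all collagen genes they had 15070.2 CPM (14790.8 to 15353.7) for WT and 29507.7 (29112.7 to 29906.7) for cKO, that is 1.51% and 2.95% of their UMIs. Endothelial-like cells followed with 4045 CPM for WT and 3489 for cKO. The squamous-like cells of cKO had 560 CPM (528 to 592), the epithelial-like class 117 CPM for WT and 128 for cKO, and macrophage-like cells 127 and 112 CPM. All other named classes of 50 or more cells lay between 34.8 and 102 CPM, and the 102 CPM of mast-like cells in cKO came to 35.7% from 1 cell. The unnamed cells, among them a cluster with markers of both pericytes and fibroblasts, had 463 CPM for WT and 1848 for cKO. They held 7.59% of the collagen UMIs of WT and 4.14% of those of cKO, and in cKO 1 cell held 36.2% of theirs. By number of transcripts the order was closer, since epithelial-like cells were many: fibroblast-like cells held 42.6% of the collagen UMIs of WT and 59.6% of those of cKO, and epithelial-like cells 42.1% and 25.4%.

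**Figure D1:**
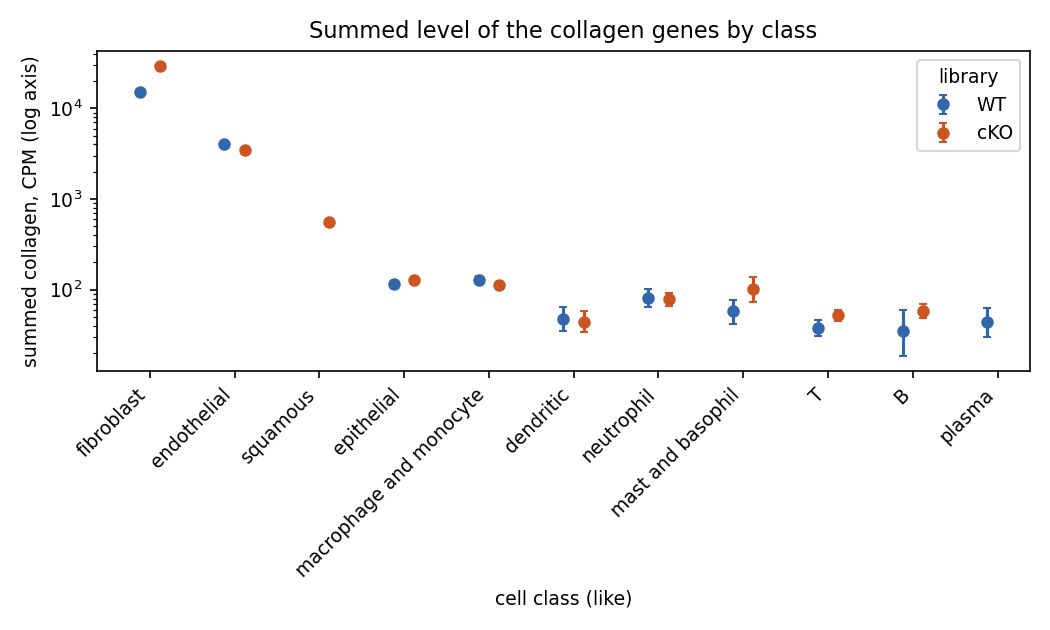
Summed collagen level (CPM, log axis) in each named cell class, with WT and cKO as separate points and 95% counting intervals as bars. Fibroblast-like cells stand highest at 15070.2 CPM for WT and 29507.7 for cKO, and endothelial-like cells come next.

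Taken gene by gene, fibroblast-like cells were the class of the highest level for 23 of the 29 collagens that reached 10 CPM in WT and for 19 of 26 in cKO. Over all genes measured, 13.6% in WT and 12.8% in cKO were highest there. A gene entered these counts by reaching 10 CPM in any class, and many collagens reached it in fibroblast-like cells alone. In WT the next class held 2.98 CPM of Col1a1, 7.15 of Col3a1 and 0.256 of Col5a1. Such genes are highest there by the rule, which was the same for all genes. Endothelial-like cells were highest for 5 collagens in WT (all genes, 17.8%) and 4 in cKO (16.3%), squamous-like cells for 2 in cKO (11.5%), namely Col7a1 and Col17a1, and epithelial-like cells for Col9a3 alone in each library (17.0% and 14.6%). The class of Col4a1 differed between the libraries, with endothelial-like cells ahead in WT and fibroblast-like cells by a narrow margin in cKO.

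**Figure D2:**
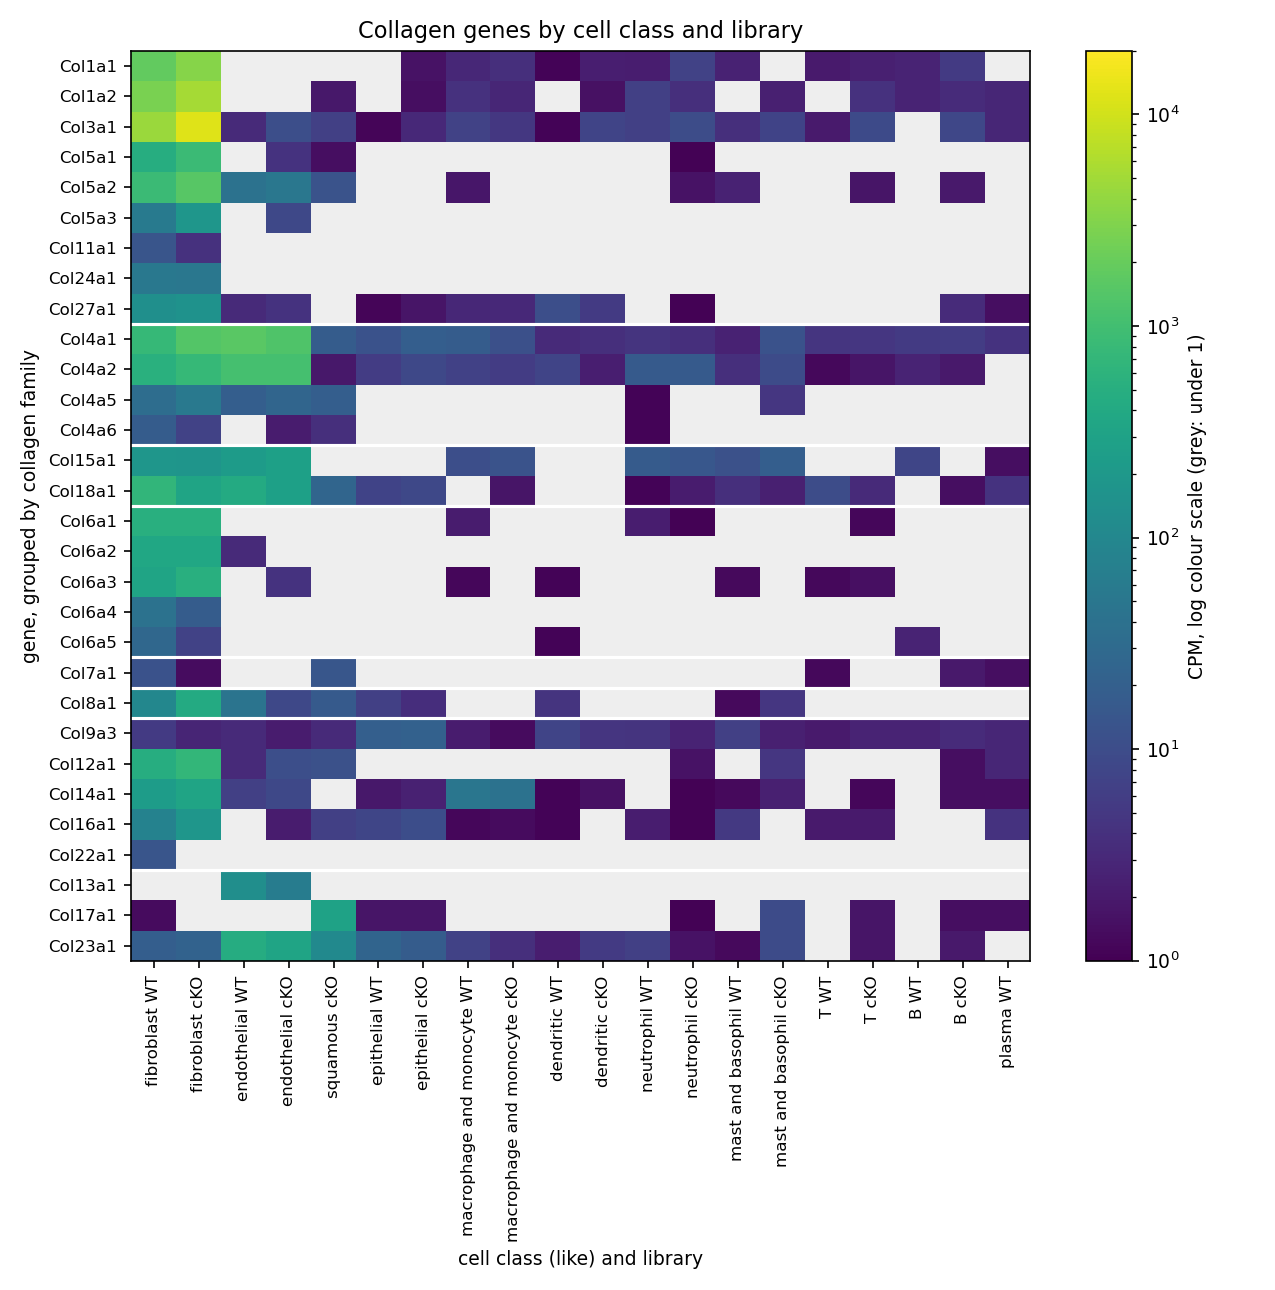
Level of each collagen gene that reached 10 CPM (rows, grouped by family) in each named class and library (columns), as CPM on a log colour scale, with values under 1 CPM in grey. The fibrillar and type VI genes are high in the fibroblast-like columns, Col4a1 and Col4a2 also in endothelium, and Col9a3 in the epithelial-like columns.

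The fibrillar chains made up most of the collagen of fibroblasts. Col3a1, the single chain of type III collagen, which mixes with type I in pliable tissue, had 4543 CPM (4389.9 to 4699.6) for WT and 12264 CPM (12010.0 to 12522) for cKO. Col1a2 and Col1a1, which together form type I collagen, the main fibre of connective tissue, followed. Col1a2 stood at 2683 CPM for WT and 5239.8 for cKO, and Col1a1 at 1826 CPM for WT and 3357 for cKO. The ratio of Col1a1 to Col1a2 UMIs was 0.681 in WT and 0.641 in cKO. Type V chains, which join the core of type I fibres and limit their width, were present with all 3 genes: Col5a2 at 839 CPM for WT and 1553 for cKO, Col5a1 at 486 CPM for WT and 866 for cKO and Col5a3 at 59.9 CPM for WT and 179 for cKO. Col5a2 and Col3a1 are neighbours on chromosome 1, tail to tail with 24614 bases between them (GRCm38). The minor fibrillar genes were lower. Col27a1 had 138 CPM for WT and 157 for cKO, Col24a1 had 51.7 CPM for WT and 49.9 for cKO, and Col11a1, a cartilage fibre chain, 13.6 CPM for WT and 4.16 for cKO on 10 and 3 UMIs.

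Outside the fibroblasts most fibrillar genes were at or near 0. In endothelial-like cells Col1a1 and Col1a2 had 0 UMIs in both libraries, where a count of 0 allows up to 9.62 CPM for WT and 6.37 for cKO. Col5a2 was the fibrillar gene with the highest level there, at 41.7 CPM for WT and 50.9 for cKO. In epithelial-like cells Col3a1 had 1.13 CPM for WT and 3.16 for cKO, no more than the 2.06 and 9.13 CPM in T-like cells, a type not known to make it, and so at or below this background level.

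The type IV chains Col4a1 and Col4a2, the universal pair of basement membranes, were shared between endothelium and fibroblasts. Endothelial-like cells had 1603 CPM (1465 to 1749.5) of Col4a1 for WT and 1322 CPM (1220.4 to 1430.2) for cKO, and fibroblast-like cells 768 CPM (706 to 834) and 1427 CPM (1341 to 1517). Col4a2 was higher in endothelial-like cells in both libraries, at 1064 CPM for WT and 1063 for cKO, against 532 CPM for WT and 766 for cKO in fibroblast-like cells. The genes lie head to head on chromosome 8 with start sites 21 bases apart, and their annotations overlap by 22 bases. The ratio of Col4a1 to Col4a2 UMIs was 1.44 and 1.86 in fibroblast-like cells, 1.51 and 1.24 in endothelial-like cells and 2.10 and 2.27 in epithelial-like cells, WT first. Neutrophil-like cells of cKO had more Col4a2 than Col4a1, with a ratio of 0.226 (0.084 to 0.523). The WT cells had the same order: 6.36% of them had a Col4a2 UMI and 1.82% a Col4a1 UMI, against 6.23% and 1.82% in cKO. The minor chains followed other patterns. Col4a5 and Col4a6, head to head on the X chromosome with start sites 1309 bases apart, were in WT highest in fibroblast-like cells, at 34.04 and 17.7 CPM. In fibroblast-like cells of cKO they had 55.4 and 6.93 CPM, and 33 of the 40 Col4a5 UMIs there came from 1 cell. Col4a3 and Col4a4, whose start sites lie 72 bases apart on chromosome 1, did not reach 10 CPM in any class, with maxima of 4.16 and 4.84 CPM.

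Among the type VI and fibril-associated genes, Col6a1, Col6a2, Col6a3, Col6a4, Col12a1, Col14a1 and Col16a1 were highest in fibroblast-like cells in both libraries. Col6a1, Col6a2 and Col6a3, the chains of the common type VI filament, stood in WT at 515, 359 and 323 CPM and in cKO at 507, 362 and 507 CPM. Col6a4 and Col6a5, alternatives to the Col6a3 chain that lie side by side on chromosome 9, were lower, at 42.2 CPM for WT and 18.01 for cKO for the first and 27.2 CPM for WT and 6.93 for cKO for the second. Among the fibril-associated genes Col12a1 had 478 CPM for WT and 691 for cKO, Col14a1 had 238 CPM for WT and 327 for cKO, and Col16a1 had 81.7 CPM for WT and 184 for cKO. Col8a1, a short-chain collagen known from vessel walls and wound stroma, had 98.04 CPM for WT and 429 for cKO. The multiplexin Col18a1, whose cleaved end is endostatin, had 667 CPM for WT and 331 for cKO, and the multiplexin Col15a1 181 CPM for WT and 173 for cKO. Col18a1 overlaps Slc19a1 on the other strand in the annotation, and Slc19a1 was listed at 9.53 and 4.16 CPM there. The sources used here do not say whether counting used strand, so reads of overlapping genes cannot be told apart.

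Fibroblast-like cells fell into 3 clusters with different collagen sets. Cluster 23 (63 WT and 27 cKO cells) was led by Gdf10, Sfrp4, Cilp, Lum and Lox. Cluster 32 (24 and 13 cells) was led by Mmp10, Bmp5, Lama1 and Hhip and had the most telocyte marker transcripts, 4613 CPM for WT and 5796 for cKO, against at most 1158 CPM in either other cluster. Cluster 33 (18 and 14 cells) was led by Fgf10, Clec3b, C4b and Osr1. The collagens did not enter the clustering. With 1 library per genotype the clusters have no replicate check.

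Cluster 23 carried the most fibrillar collagen as a share, 78.9% of its collagen UMIs in WT and 84.2% in cKO, against 68.9% and 61.1% in cluster 32 and 68.8% and 72.3% in cluster 33. Col14a1, which decorates fibrils, marked it: cluster 23 had 638 CPM for WT and 509.8 for cKO, cluster 32 had 34.1 CPM for WT and 20.3 for cKO, and cluster 33 had 236 CPM for WT and 121 for cKO. Col8a1 was also highest there, at 162 CPM for WT and 657 for cKO, against 83.7 CPM for WT and 30.4 for cKO in cluster 32 and 73.3 CPM for WT and 181 for cKO in cluster 33. All UMIs of Col11a1 in fibroblast-like cells came from cluster 23, 10 in WT and 3 in cKO.

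Cluster 32 stood out for Col6a3, Col6a4, Col4a5 and Col4a6 in both libraries, and for Col18a1 in WT. Col18a1 stood at 1209 CPM (1092 to 1335) for WT and 719 CPM (562 to 907) for cKO, against 18.1 and 22.1 CPM in cluster 23. Cluster 33 had 395 CPM for WT and 739 for cKO, so it was near cluster 32 in cKO and below it in WT. Col6a4 was almost restricted to cluster 32, with 96.1 CPM for WT and 122 for cKO and a total of 1 UMI in the other clusters of both libraries. Col4a6 had UMIs in cluster 32 only, 13 in WT and 5 in cKO, the latter all in 1 cell. Its neighbour Col4a5 had 71.3 CPM for WT and 365 for cKO there. Of the 36 UMIs in cKO, 33 came from 1 cell, and in WT they came from 4 of 24 cells. Col24a1 followed the same pattern with 102 CPM for WT and 172 for cKO, and Col6a3, with 573 CPM for WT and 942 for cKO, was above both other clusters in each library. Col22a1, a collagen of tissue junctions, had 10 UMIs over 8 WT cells of cluster 32 and 0 elsewhere among fibroblast-like cells. Type VI chains made up 9.7% and 14.9% of the collagen of cluster 32, WT first, against 4.0% and 4.0% in cluster 23 and 8.5% and 3.8% in cluster 33. Type IV chains made up 9.5% and 13.7%, against 6.3% and 6.1% in cluster 23 and 9.6% and 11.4% in cluster 33. In cKO Col4a1 was lowest in cluster 32, at 1023 CPM, with 1564 CPM in cluster 23 and 1353 CPM in cluster 33.

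Cluster 33 had the most Col15a1, 354 CPM for WT and 251 for cKO, against 139 CPM for WT and 111 for cKO in cluster 32 and 6.02 CPM for WT and 147 for cKO in cluster 23. It had the least Col6a3, 57.003 CPM for WT and 112 for cKO. Its Col1a1 was below that of cluster 23 in both libraries, at 789.9 CPM for WT and 1459.8 for cKO against 2245 CPM for WT and 4956 for cKO. In cKO 1 cell held 41.8% of the collagen UMIs of this cluster.

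**Figure D3:**
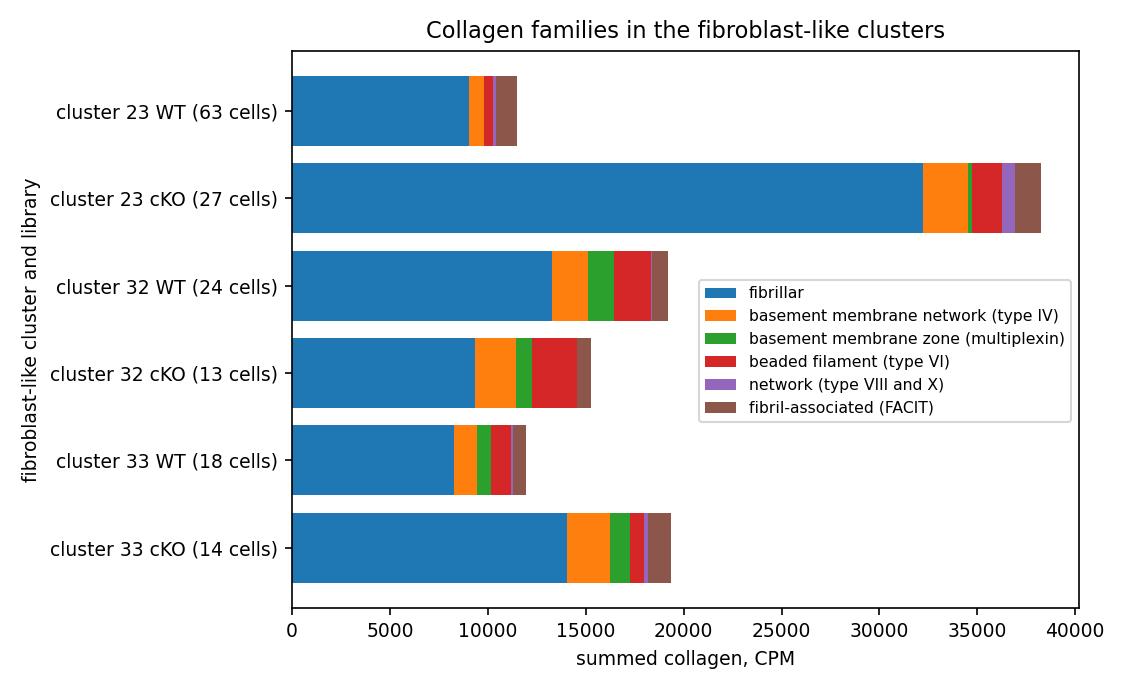
Summed collagen level (CPM, stacked bars from 0) by family in fibroblast-like clusters 23, 32 and 33, with 1 bar for each library and its number of cells. The fibrillar part is the largest in every bar, cluster 23 has both the shortest bar (11482.6 CPM in WT) and the longest (38278.2 CPM in cKO), and the type VI part is widest as a share in cluster 32 of cKO, at 14.9%.

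The comparison of cKO with WT sets collagen levels in tumours of Mtch2fl/fl VilCre mice beside those in tumours of Mtch2fl/fl mice. In fibroblast-like cells the summed collagen level was higher in the cKO library, with a log2 ratio of 0.97 (0.94 to 1.00). The fibrillar sum was 10640.5 CPM for WT and 23669.3 for cKO, a log2 ratio of 1.15 (1.11 to 1.19), and the type IV sum was also higher, at 0.74 (0.63 to 0.86). The type VI sum was close between the libraries, at 0.15 (0.02 to 0.28), and the multiplexin sum was lower, at -0.75 (-0.94 to -0.56). Without cluster 23 these sums had log2 ratios of 0.18 (0.12 to 0.24) for fibrillar, 0.50 (0.35 to 0.64) for type IV, -0.30 (-0.47 to -0.12) for type VI and -0.21 (-0.42 to -0.01) for multiplexin genes. With 1 pooled library per genotype none of these is a tested difference.

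Of 27 collagens measured in fibroblast-like cells, 11 were past 1.5-fold higher in cKO, where 12.1% of all measured genes were, and 7 were past 1.5-fold lower, where 27.6% of all genes were. The median log2 ratio of the collagens was 0.46, against -0.18 over all genes. Col8a1 had the largest ratio, 2.12 (1.76 to 2.52), from 72 and 310 UMIs, and without cluster 23 it had 0.76 (0.11 to 1.40). Col5a3 was higher by 1.57 (1.07 to 2.10) and Col3a1 by 1.43 (1.38 to 1.49) on the log2 scale. Without cluster 23 these were 0.25 (-0.50 to 0.96) and 0.50 (0.41 to 0.58). The type I genes were close to each other, Col1a1 at 0.88 (0.78 to 0.98) and Col1a2 at 0.97 (0.89 to 1.05), and both turned sign without cluster 23. Col1a1 then had 1704 CPM for WT and 1278 for cKO, or -0.41 (-0.59 to -0.25), and Col1a2 2622 CPM for WT and 2266 for cKO, or -0.21 (-0.34 to -0.08). Col16a1 had 1.17 (0.72 to 1.64), Col4a1 0.89 (0.74 to 1.04), Col5a2 0.89 (0.75 to 1.03), Col5a1 0.83 (0.64 to 1.02) and Col6a3 0.65 (0.41 to 0.89), all higher in cKO. Without cluster 23 they were 0.26, 0.51, 0.26, 0.02 and 0.09 in the same order, all under 1.5-fold. Col4a2 stayed under 1.5-fold, at 0.52 (0.34 to 0.72). Col6a1 and Col6a2 did not differ by more than counting error, at -0.02 (-0.23 to 0.19) and 0.01 (-0.24 to 0.26). Without cluster 23 Col4a2 had 0.41, Col6a1 -0.40 (-0.69 to -0.12) and Col6a2 -0.41 (-0.76 to -0.08). On the lower side Col18a1 had -1.01 (-1.24 to -0.78), and -0.22 (-0.46 to 0.0035) without cluster 23. The other 6 rested on at most 31 UMIs in WT, such as Col7a1 on 9 and 1, of which 8 of the 9 in WT came from 1 cell.

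The ratio differed in size and sign among the 3 clusters. In cluster 23 the summed collagen level was 11482.6 CPM for WT and 38278.2 for cKO, with a log2 ratio of 1.74 (1.67 to 1.81). Cluster 33 had 12011.4 and 19404.9 CPM, at 0.69 (0.62 to 0.76), and cluster 32 was lower in cKO, with 19247 and 15269.9 CPM, at -0.33 (-0.42 to -0.25). Without cluster 23 the log2 ratio of the class was 0.17 and the median over 26 measured collagens -0.069, against -0.03 over all genes. Then 4 collagens were past 1.5-fold higher, where 17.0% of all genes were, and 3 lower, where 20.1% were. The 4 were Col4a5, Col8a1, Col12a1 and Col23a1, and the 3 Col6a5, Col7a1 and Col22a1. Several rested on few UMIs. In clusters 32 and 33 Col23a1 had 2 and 10 UMIs in WT and 1 and 9 in cKO. Col6a5 had 20 and 0 in WT and 1 and 2 in cKO, and Col7a1 9 and 0 in WT and 0 and 1 in cKO. Col22a1 had 10 UMIs in WT cluster 32, and most cKO UMIs of Col4a5 came from 1 cell. The WT cells of cluster 23 had few UMIs, and the WT cells of both cluster 23 and cluster 32 held erythroid and epithelial transcripts above those of cKO. In cluster 33, where erythroid markers were low in both libraries, 1 cKO cell held 41.8% of the collagen UMIs. The fibroblast markers of cluster 23 were lower in WT too, at 11055 CPM against 18309 CPM in cKO. Counted per fibroblast-marker UMI the collagen of cluster 23 was 1.04 in WT and 2.09 in cKO, that of cluster 33 was 1.10 and 1.71, a log2 ratio of 0.64, and that of cluster 32 was 2.88 in both. For the whole class the measure was 1.66 and 2.04, a log2 ratio of 0.30. The marker list holds matrix genes, and its members Dcn, Loxl1 and Fap were themselves past 1.5-fold higher in cKO in the class. The measure thus sets collagen against genes that partly moved with it.

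Single genes behaved differently within the clusters. Col1a1 was higher in cKO in cluster 23, at 1.14 (0.98 to 1.31), and in cluster 33, at 0.88 (0.62 to 1.15), and lower in cluster 32, at -1.44 (-1.78 to -1.12). Col3a1 was 2913 CPM for WT and 16255 for cKO in cluster 23, 3509.8 CPM for WT and 8215 for cKO in cluster 33 and 6169 CPM for WT and 4590.1 for cKO in cluster 32. The lower Col18a1 of the class in cKO was not shared by cluster 33, where it was higher, at 0.90 (0.53 to 1.28), while in cluster 32 it was -0.74 (-1.13 to -0.38). Cluster 32, which had the most Col18a1 in WT, held 322596 of the 734361 UMIs of the class in WT and 98691 of 721778 in cKO, and cluster 23 held 166165 and 407987, so class values of genes that differ between the clusters move with that share. Differences between clusters in these ratios were not tested.

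**Figure D4:**
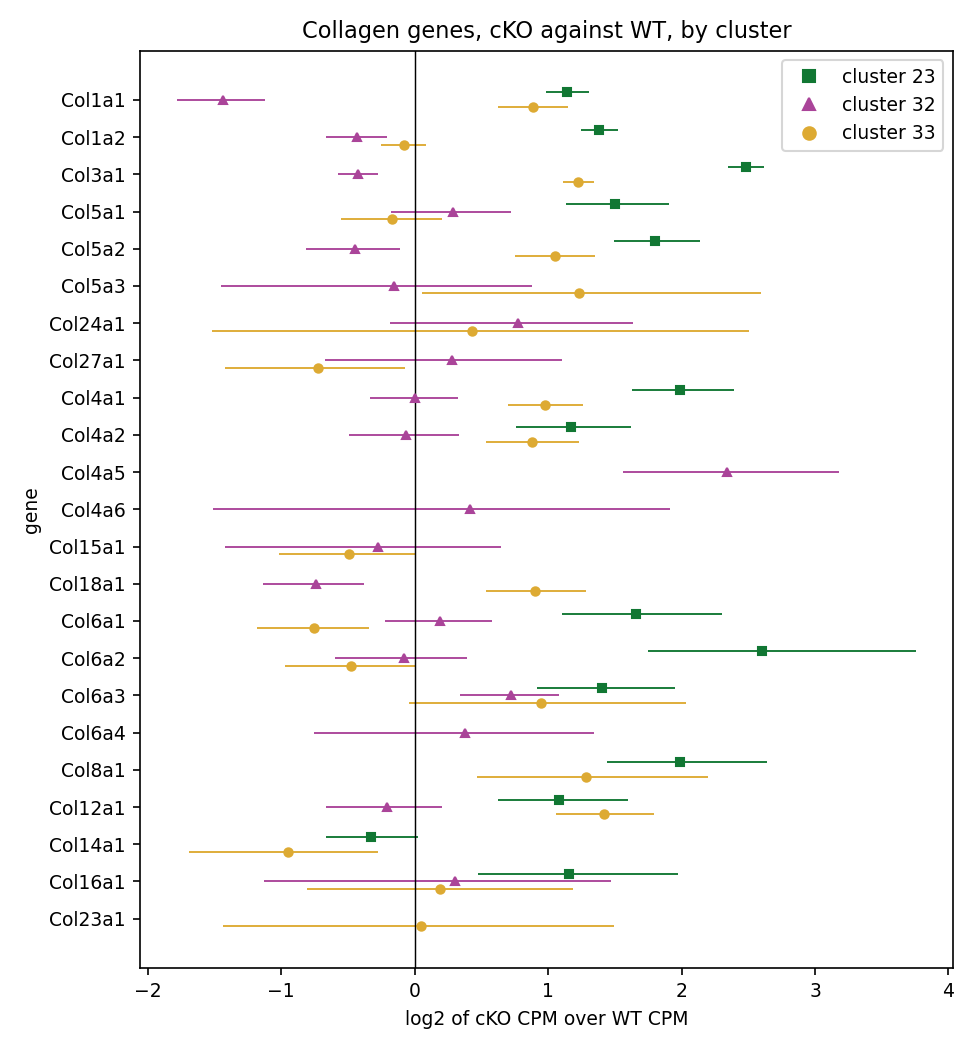
Log2 ratio of cKO to WT level (x axis) for each collagen with more than 3 UMIs in both libraries, in fibroblast-like clusters 23 (squares), 32 (triangles) and 33 (circles), with 95% counting intervals as bars and a line at 0. For Col1a1 the points of clusters 23 (1.14) and 33 (0.88) lie right of 0 and that of cluster 32 (-1.44) lies left of it.

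Endothelial-like cells divided into a blood-vessel cluster (cluster 25, with Ackr1, Selp and Plvap, 38 WT and 30 cKO cells) and a lymphatic cluster (cluster 27, with Ccl21a, Mmrn1 and Lyve1, 13 and 23 cells). Blood endothelium had more collagen, 4809 and 4848 CPM, than lymphatic endothelium, 3218 and 2275 CPM, WT first. Type IV chains led in both, with 74.0% and 71.3% of the collagen UMIs of blood and 54.1% and 65.0% of lymphatic endothelium. The rest of the set differed by cluster in both libraries.

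In blood endothelium Col4a1 had 2096 CPM for WT and 1889 for cKO and Col4a2 1461 CPM for WT and 1565 for cKO. In lymphatic cells Col4a1 had 1068 CPM for WT and 816 for cKO and Col4a2 634 CPM for WT and 615 for cKO. Col15a1 was a blood-vessel gene, at 438 CPM (342 to 552) for WT and 594 CPM (497 to 704) for cKO, against 0 and 1 UMIs in lymphatic cells. Col13a1, a transmembrane collagen of adhesion sites, had 259 CPM for WT and 135 for cKO in blood and 0 UMIs in lymphatic cells. Col23a1, another transmembrane collagen, was the opposite: lymphatic cells had 941 CPM (792 to 1110.3) for WT and 611 CPM (518 to 716) for cKO, and blood cells 6.17 and 17.99 CPM. It had UMIs in 10 of 13 and 21 of 23 lymphatic cells, though 1 WT cell held 42.6% of the WT count. Over the whole endothelial-like class 21.6% of WT and 45.3% of cKO cells had a Col23a1 UMI (median 3685 and 7214 UMIs per cell), against 0.347% and 1.51% of T-like cells (median 7442 and 7693.5). Col4a5 also sided with lymphatic cells, with 40.1 CPM for WT and 48.2 for cKO and 0 UMIs in blood endothelium. Col18a1 was level between the clusters in WT, at 432 CPM in blood and 421 CPM in lymphatic cells, and apart in cKO, at 449.8 and 129 CPM.

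Between the libraries, endothelial collagen was close. The summed level had a log2 ratio of -0.21, Col4a1 -0.28 (-0.45 to -0.10) and Col4a2 -0.002 (-0.20 to 0.20). Of 11 collagens measured, 2 were past 1.5-fold higher in cKO (all genes, 17.6%) and 3 lower (22.1%), shares near those of all genes. The 3 lower ones were Col8a1 at -2.28 (-4.46 to -0.73), on 14 UMIs in WT, of which 12 came from 1 cell, and 4 in cKO, Col13a1 at -1.07 (-1.81 to -0.37) and Col18a1 at -0.61 (-0.96 to -0.25). Lymphatic cells were 13 of 51 in WT and 23 of 53 in cKO, but class values weigh the clusters by UMIs and not by cells. Within blood endothelium Col13a1 had 259 CPM for WT and 135 for cKO, and Col15a1 438 and 594 CPM. Within lymphatic cells Col23a1 had 941 CPM for WT and 611 for cKO. The part of the cluster shares in the class values was not tested.

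Squamous-like cells, found in cKO only, carried the collagens of skin-type epithelium. By Xist and Y-linked transcripts 34 of the 58 cells were assigned female, 0 male and 24 neither. In epithelial-like cells of cKO these numbers were 323, 1180 and 599. How many of the pooled mice the squamous-like cells came from is not known. Col17a1, the transmembrane collagen of hemidesmosomes, had 298 CPM (275 to 322) and UMIs in 75.9% of these cells (median 33920.5 UMIs), against 4.71% of epithelial-like cells (median 25064.5) and 1.51% of T-like cells of the same library. With each cell thinned to 2000 UMIs the shares were 43.1%, 0.494% and 0 of 395 T-like cells, which allows up to 0.759%. Col23a1 stood at 109 CPM (95.4 to 124), and Col7a1, the anchoring fibril of skin, at 14.2 CPM (9.59 to 20.3) over 19 of 58 cells. Transmembrane chains made up 73.0% of the collagen UMIs of this class. Col4a5 had 18.95 CPM and Col18a1 25.6 CPM.

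Epithelial-like cells had a low and distinct collagen set, in which fibril-associated chains made up 36.6% of the collagen UMIs in WT and 37.1% in cKO. Col9a3, a type IX chain better known from cartilage, had 20.4 CPM (19.5 to 21.4) for WT and 21.8 CPM (20.7 to 22.9) for cKO, against 2.06 and 2.65 CPM in T-like cells. Unnamed cluster 0, with a median of 731 UMIs per cell, held Col9a3 at a like level, 22.0 CPM for WT and 21.4 for cKO. Its partner Col9a2 had 7.94 CPM for WT and 6.89 for cKO, and the UMI ratio of Col9a3 to Col9a2 was 2.57 and 3.16. Col9a3 overlaps Tcfl5 on the other strand in the annotation, and Tcfl5 was listed at 0.235 and 0.24 CPM in epithelial-like cells. Col23a1 stood at 24.3 CPM for WT and 18.1 for cKO, Col4a1 at 12.1 CPM for WT and 19.3 for cKO and Col16a1 at 7.86 CPM for WT and 10.2 for cKO.

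These genes were unevenly spread over the 11 epithelial-like clusters. Cluster 7, led by genes that include the stem cell gene Lgr5, had the most summed collagen in both libraries, 226 and 265 CPM, WT first, and cluster 1, with Npy and Sox11, had 209 and 229 CPM. Cluster 4, led by genes that include Saa1 and Krt20, the latter a keratin of surface colonocytes, had 29.6 and 45.4 CPM, and the absorptive cluster 17, led by Slc5a8 and Pck1, 21.5 and 30.4 CPM. Col9a3 ran from 55.2 CPM for WT and 55.9 for cKO in cluster 7 to 1.91 CPM for WT and 0.855 for cKO in cluster 4. Col23a1 did likewise, with 72.1 CPM for WT and 58.7 for cKO in cluster 1 and 1.08 CPM for WT and 0.534 for cKO in cluster 4. Col8a1 was highest in cluster 7, at 35.4 CPM for WT and 23.9 for cKO, and Col25a1, a neuronal transmembrane collagen, in cluster 1, at 11.4 CPM for WT and 9.78 for cKO. Col4a1 was highest in cluster 3, at 23.1 CPM for WT and 40.9 for cKO. Cluster 7 led for Col9a3 and cluster 1 for Col23a1 in both libraries, though in cKO cluster 7 was level with it, at 58.7 CPM.

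Between the libraries the summed epithelial collagen was nearly level, with a log2 ratio of 0.13, while families moved both ways. The type IV sum was higher in cKO, at 19.2 CPM (18.3 to 20.1) for WT and 29.1 CPM (27.9 to 30.4) for cKO. The transmembrane sum was lower in cKO, at 30.3 CPM (29.2 to 31.4) for WT and 23.5 CPM (22.4 to 24.7) for cKO. Of 4 collagens measured, 1 was past 1.5-fold higher in cKO (all genes, 0.894%), Col4a1 at 0.67 (0.56 to 0.79), and 0 lower (1.13%). Unnamed cluster 0 had more Col4a1 than epithelial-like cells, 20.0 CPM for WT and 28.5 for cKO, and T-like and B-like cells together 4.65 and 5.15 CPM. The part of background RNA in this ratio was not tested. Col9a3 had 0.09 (-0.0047 to 0.19) and Col23a1 -0.43 (-0.53 to -0.33). Col8a1, under the level for measuring, had 6.41 CPM for WT and 3.68 for cKO.

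Among immune cells, single collagens stood above the level of T-like cells. Col14a1 in macrophage-like cells had 48.6 CPM (41.4 to 56.6) for WT and 41.5 CPM (35.8 to 47.9) for cKO, against 0.413 and 1.18 CPM in T-like cells. At 2000 UMIs per cell, 7.98% of WT and 7.69% of cKO macrophage-like cells had a Col14a1 UMI (26.1% and 20.5% unthinned), against 0 of 284 and 1 of 395 T-like cells. Col3a1, which fibroblast-like cells held at far higher levels than Col14a1, had 7.15 CPM for WT and 4.91 for cKO in macrophage-like cells. The part of fibroblast RNA in these values was not tested. Col15a1 had 17.4 CPM for WT and 14.9 for cKO in neutrophil-like cells and 10.7 CPM for WT and 12.5 for cKO in macrophage-like cells, against 0.413 and 0.294 CPM in T-like cells. Between the libraries, macrophage-like cells had less Col4a1 in cKO, 17.9 CPM for WT and 11.4 for cKO, a log2 ratio of -0.65 (-1.22 to -0.09). Of 3 collagens measured there, Col4a1 was the 1 past 1.5-fold lower (all genes, 6.90%), and 0 were higher (5.86%). Col4a2 had 16.3 CPM for WT and 16.6 for cKO in neutrophil-like cells, above the 1.24 and 1.77 CPM of T-like cells. It was not above unnamed cluster 0, whose cells had few UMIs. That cluster held Col4a2 at 21.5 CPM (15.5 to 28.9) for WT and 26.1 CPM (13.03 to 46.7) for cKO. The part of background RNA in the neutrophil-like Col4a2 values was not tested.

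The other 14 collagen genes did not reach 10 CPM in a named class of 50 or more cells. They include the cartilage genes Col2a1, with at most 2.48 CPM, Col9a1, Col10a1 and Col11a2, the kidney and lung basement membrane pair Col4a3 and Col4a4, and Col6a6, Col8a2, Col19a1, Col26a1 and Col28a1. Col9a2 at 7.94 CPM and Col25a1 at 3.91 CPM had their highest level in epithelial-like cells, and Col20a1 was just under the level, at 9.95 CPM in plasma-like cells. Just above it stood Col11a1 and Col22a1, at 13.6 CPM each in fibroblast-like cells of WT.

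The genes that fold, process and surround collagen were read from 6 lists chosen by function. The shares of all genes past 1.5-fold in these cells are those given for the collagens. In fibroblast-like cells, 7 of 17 measured modifying enzymes and chaperones were past 1.5-fold higher in cKO and 0 lower, with a median log2 ratio of 0.47 against -0.18 over all genes. They were P4ha2, P4ha3, P4hb, P3h1, Plod2, Fkbp10 and Mia3, which hydroxylate, fold or export procollagen. Serpinh1, the collagen chaperone, had 707 CPM for WT and 978 for cKO, and P4hb, a subunit of prolyl hydroxylase, 271 CPM for WT and 468 for cKO. Of 10 genes for processing and crosslinking, 4 were past 1.5-fold higher and 1 lower, with a median of 0.43. Lox, which crosslinks fibrils, had 70.8 CPM for WT and 651 for cKO, a log2 ratio of 3.19 (2.79 to 3.64), and Loxl1 had 202 CPM for WT and 459.98 for cKO. Adamts3, which trims procollagen, was the lower one, at 96.7 CPM for WT and 37.4 for cKO. Without cluster 23 the modifying enzymes and chaperones had 4 of 17 higher and 1 lower, with a median of 0.25, and processing and crosslinking 3 of 11 higher and 2 lower, with a median of -0.21. Lox then had 1.69 (1.12 to 2.30), Loxl1 0.71 (0.28 to 1.13), Adamts3 -1.31 (-2.26 to -0.52), P4hb 0.25 (-0.11 to 0.60) and Serpinh1 -0.03 (-0.26 to 0.19).

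The other interstitial matrix had 9 of 13 genes past 1.5-fold higher and 0 lower, with a median of 0.86. They were Eln, Fbn1, Sparc, Tnc, Dcn, Thbs1, Thbs2, Vcan and Ccn2. Tnc, a matrix glycoprotein of wounds and tumours, had 231 CPM for WT and 1843 for cKO, and Dcn, which binds collagen fibrils, 4924 CPM for WT and 8936 for cKO. Fn1, fibronectin, went the other way without passing 1.5-fold, at 2161 CPM for WT and 1582 for cKO. For these lists too, 12.1% of all measured genes were past 1.5-fold higher and 27.6% lower. The basement membrane list had 3 of 15 past 1.5-fold higher and 5 lower and a median of -0.0037. Lama1 was among the lower ones, at 227 CPM for WT and 107 for cKO. Collagen breakdown had 3 higher and 3 lower of 12, among them Timp1, an inhibitor of collagenases, at 61.3 CPM for WT and 776 for cKO, and the stromelysin Mmp10 at 404 CPM for WT and 29.1 for cKO. Of 9 receptors, 1 was higher, Cd44, at 394 CPM for WT and 824 for cKO, and 4 lower, such as the integrin Itga1, at 279 CPM for WT and 81.7 for cKO.

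Without cluster 23 the other interstitial matrix had 1 of 13 genes higher, Ccn2, and 2 lower, Postn and Lum, with a median of 0.17, and Tnc had 0.47 (0.11 to 0.82) and Dcn 0.37 (0.28 to 0.46). The basement membrane list had 0 of 15 higher and 5 lower, with a median of -0.12. Over all genes measured without cluster 23, 17.0% were past 1.5-fold higher and 20.1% lower. Lama1 had -0.29 (-0.71 to 0.10) and Fn1 -0.34 (-0.49 to -0.21). Collagen breakdown had 3 of 11 higher and 2 lower, with Timp1 at 1.53 (0.94 to 2.14) and Mmp10 at -2.93 (-3.68 to -2.33). The receptors had 1 of 7 higher and 2 lower, with Itga1 at -1.20 (-1.71 to -0.74), and Cd44 turned sign, to -0.77 (-1.20 to -0.37).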

How the data were processed

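Single-cell suspensions of tumours were profiled in 1 droplet library per genotype. The deposited matrices hold UMI counts per gene and cell barcode, and the file headers name Cell Ranger 7.2.0, run by the authors, while the submitters' processing notes name mm10 and Seurat 3.0. The WT matrix held 9445 barcodes and 116066712 UMIs, and the cKO matrix 6723 barcodes and 97364087 UMIs. Barcodes with under 500 genes (905 WT, 1607 cKO), over 25% mitochondrial UMIs (671 and 487) or called as doublets (714 and 362) were left out.

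Cells were clustered with scanpy 1.11.5 and leidenalg 0.10.2 (2000 variable genes, 30 components, 20 neighbours, resolution 1) without collagen genes, Mtch2, sex-linked and immune receptor genes, giving 37 clusters. Clusters were named from 16 marker lists by a scoring rule set after the clusters were seen, and those with markers of several classes or few UMIs stayed unnamed. The collagen genes, gene lists and comparisons were chosen with earlier results of these data known. Named genes are the collagens that reached 10 CPM in a named class of 50 or more cells and, of each other list, the 3 highest in fibroblast-like cells or those past 1.5-fold with an interval clear of 0.

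Counts were summed per class and library and divided by the UMIs of the class. Intervals are exact Poisson for levels, Clopper-Pearson for shares and conditional binomial for log2 ratios (prior count 0.5). They cover counting error only, and no test between libraries was possible. A count of 0 allows 3 UMIs. A gene counts as measured at 10 CPM or more in at least 1 library of a class, and as past 1.5-fold by its ratio alone. The ratio code was tested on simulated counts. Gene positions are from GENCODE M21 on GRCm38. Values of 1 erythroid marker are not reported here.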

Additional observations from a re-analysis of the deposited data

Results flagged for a closer look

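Some collagens were past 1.5-fold higher in cKO in one cell class or cluster and past it lower in another, with counting intervals on opposite sides of 0, and the sums did so past a log2 ratio of 0 alone. The difference between classes was not tested in any of these cases, since each genotype is 1 library. Col4a1 had a log2 ratio of 0.89 (0.74 to 1.04) in fibroblast-like cells and 0.67 (0.56 to 0.79) in epithelial-like cells, against -0.65 (-1.22 to -0.09) in macrophage-like cells. Col8a1 had 2.12 (1.76 to 2.52) in fibroblast-like cells and -2.28 (-4.46 to -0.73) in endothelial-like cells, where 12 of the 14 WT UMIs came from 1 cell and cKO had 4.

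Within fibroblast-like cells, Col1a1 had 1.14 in cluster 23 and 0.88 in cluster 33 against -1.44 in cluster 32. Col6a1 had 1.66 (1.11 to 2.30) in cluster 23 and -0.75 (-1.18 to -0.34) in cluster 33. Col18a1 had 0.90 in cluster 33 and -0.74 in cluster 32. Summed over all collagens the ratio was 1.74 in cluster 23 and 0.69 in cluster 33 against -0.33 in cluster 32. The WT cells of cluster 23 had few UMIs, and erythroid markers summed to 21689 CPM in WT and 51.5 CPM in cKO there, and to 8400.6 and 30.4 CPM in cluster 32. Epithelial markers summed to 7174 and 689 CPM in cluster 23 and to 1953 and 963 CPM in cluster 32. Their part in these ratios was not tested.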

How the results depend on the processing

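The higher summed collagen of fibroblast-like cells in cKO (log2 ratio 0.97) kept its direction under all 17 alternatives, between 0.17 and 1.72. It was 1.09 with median-of-ratios scaling, 0.89 as the mean of per-cell CPM, 1.57 with all deposited barcodes, 1.54 with called doublets kept, 1.72 with at most 10% mitochondrial UMIs, 1.65 and 0.86 at Leiden resolutions 0.5 and 2, 0.82 with a gate on single cells, 0.73 with each cell thinned to 2000 UMIs and 1.49 in cells assigned female. Chosen after seeing the data, it was 0.85 with the mixed stromal cluster added, 0.17 without the largest cluster (cluster 23) and 0.30 per fibroblast-marker UMI. That marker list holds Dcn, Loxl1 and Fap, themselves past 1.5-fold higher in cKO. Cells assigned male gave no value, since cKO held under 20.

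In endothelial-like cells (-0.21) the sign turned with the mean of per-cell CPM, to 0.078, and the ratio was -0.42 with at most 10% mitochondrial UMIs. In epithelial-like cells (0.13) it turned with the gate, to -0.078, and was 0.37 as the mean of per-cell CPM, 0.26 thinned, 0.17 in female and 0.054 in male cells.

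The median over collagens in fibroblast-like cells (0.46) was 1.17 with all barcodes, 1.22 with doublets kept, 1.37 at 10% mitochondrial UMIs, 1.30 at resolution 0.5, 0.19 with the gate, 0.76 in female cells, 0.025 with no minimum level and -0.069 without the largest cluster. Collagens past 1.5-fold higher (11) and lower (7) numbered 18 and 3 as the mean of per-cell CPM, 19 and 0 with all barcodes, 18 and 2 with doublets kept, 19 and 1 at 10% mitochondrial UMIs, 19 and 1 at resolution 0.5, and 4 and 3 without the largest cluster. Lower ones numbered 13 with no minimum and 1 with a minimum of 50 CPM. Without that cluster Col1a1 turned from 0.88 to -0.41 and Col1a2 from 0.97 to -0.21. The causes were not tested. The number of collagens highest in fibroblast-like cells stayed between 16 and 23 in WT and between 17 and 20 in cKO. Median-of-ratios scaling sets to 0 the median log2 ratio of the genes of fibroblast-like cells it used, which was -0.12 by CPM. No paired analysis was possible because each genotype is 1 library. Genes of few UMIs, such as Col4a6 or Col22a1, are limited by depth and by the 54 to 105 fibroblast-like cells.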
